A study of Homo sapiens with 8 samples.

Results

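The 10 genes described here encode the TAL1 and LMO transcription factor complex of T-cell acute lymphoblastic leukaemia and the gene that lies next to TAL1. They are TAL1, LMO1, LMO2, LYL1, TCF3, TCF12, LDB1, GATA3, MYB and STIL, taken by symbol from the 61228 genes of the deposited count table. Of the 10, 9 had counts above 0 and all 9 were among the 14243 genes that passed the filter on low counts, the other being LMO2. RNA had been sequenced from 8 untreated clones of RPMI-8402, an established line of that leukaemia grown in RPMI-1640 medium with serum. By their labels, 4 clones were NKX2-1 knockouts (the C-named C12 and C15 and the S-named S04 and S36) and the other 4 were wild-type clones (WT10, WT13, WT28 and WT30), so every clone carries the leukaemic background of this 1 line. NKX2-1 is a homeobox factor of lung and thyroid. The labels do not say how the gene was edited or what sets the C-named clones apart from the S-named ones.

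TAL1 and LYL1 are basic helix-loop-helix proteins that bind DNA in pairs with the E proteins encoded by TCF3 (E2A) and TCF12 (HEB). LMO1 and LMO2 bind no DNA themselves. They bridge such a pair, through LDB1, to a GATA factor, which is GATA3 in T cells. In T-cell leukaemia this complex, with RUNX1 and MYB, occupies enhancers of the factors' own genes. Normal maturing thymocytes turn TAL1 and the LMO genes off. RPMI-8402 has been described as carrying an interstitial deletion that puts TAL1 under the STIL promoter and a translocation that moves LMO1 next to a T-cell receptor locus. STIL itself encodes a protein needed for centriole duplication.

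The promoters of STIL and TAL1 are shown because TAL1 in this line is described as read from that of STIL, and those of LYL1 and LMO1 for comparison with a relative and a partner of TAL1. Each is the 250 bases before the RefSeq transcript start (GRCh38.p14) nearest the annotated gene start, on the minus strand, which is the strand of all 4 genes. The STIL stretch lies at chr1:47314148-47314397 and the TAL1 stretch at chr1:47232336-47232585. The LYL1 stretch lies at chr19:13102859-13103108 and the LMO1 stretch at chr11:8268788-8269037. Capitals mark the E box CANNTG, which helix-loop-helix pairs bind, and the GATA motif GATAA, both searched on both strands.
STIL: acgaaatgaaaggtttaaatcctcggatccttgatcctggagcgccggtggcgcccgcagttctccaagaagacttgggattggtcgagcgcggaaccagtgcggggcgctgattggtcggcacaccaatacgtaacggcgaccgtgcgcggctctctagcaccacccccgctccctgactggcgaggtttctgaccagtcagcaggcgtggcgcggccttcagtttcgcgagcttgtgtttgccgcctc
TAL1: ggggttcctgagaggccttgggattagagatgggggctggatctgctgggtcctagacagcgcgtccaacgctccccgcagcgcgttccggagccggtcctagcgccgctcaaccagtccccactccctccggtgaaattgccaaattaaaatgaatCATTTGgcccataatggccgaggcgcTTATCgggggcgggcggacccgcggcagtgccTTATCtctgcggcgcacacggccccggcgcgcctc
LYL1: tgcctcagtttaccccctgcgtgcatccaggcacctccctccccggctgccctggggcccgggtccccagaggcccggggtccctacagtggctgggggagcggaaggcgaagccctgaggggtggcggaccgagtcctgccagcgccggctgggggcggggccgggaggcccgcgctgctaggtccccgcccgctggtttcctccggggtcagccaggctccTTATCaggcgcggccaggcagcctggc
LMO1: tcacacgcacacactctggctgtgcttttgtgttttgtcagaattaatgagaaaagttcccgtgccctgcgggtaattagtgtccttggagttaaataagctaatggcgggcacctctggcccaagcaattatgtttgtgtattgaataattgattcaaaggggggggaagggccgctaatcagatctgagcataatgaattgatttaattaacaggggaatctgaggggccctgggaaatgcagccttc
The TAL1 stretch held 1 E box and 2 GATA motifs. The LYL1 stretch held 1 GATA motif, and neither motif was found in the STIL or LMO1 stretch. Of 35116 promoters of the same length, 61.8% held CANNTG and 20.4% held GATAA, so these matches describe the letters and not a bound site. GC content was 45.6% for LMO1, 61.6% for STIL, 64.8% for TAL1 and 75.2% for LYL1, against a median of 58.0% over all promoters.

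The targeted gene and the libraries were looked at before the complex. NKX2-1 stood at 72.0 CPM in C12 and 11.3 in C15, at 83.6 in S04 and 33.4 in S36, and wild-type clones ranged from 53.6 to 63.2 (CPM, or counts scaled to a common library total with TMM factors). Gene-level counts do not show a coding edit, so these values do not check the knockout labels. Library totals ran from 12344549 to 25423215 counts except in C15, which had 2730285. Mitochondrial transcripts took 14.8% to 21.2% of counts in knockout clones, most in C15, and 12.9% to 15.1% in wild-type clones. All 9 T-lineage markers listed were expressed, with a summed level of 1800 to 2200 CPM in knockout and 1860 to 2280 CPM in wild-type clones. Of these, CD5 (37.1 to 71.2 CPM against 84.8 to 116) and CD7 (1.30 to 3.80 CPM against 5.59 to 6.55) were lower in all 4 knockout clones than in any wild-type clone, and neither passed (edgeR adjusted p of 0.138 and 0.152). Over all tested genes 5.62% were lower in this way. The other T-lineage markers overlapped between the groups, and of the 9, 3 had a log2 fold change above 0 and 6 below. The 4 B-lineage markers summed to 2.48 to 6.88 CPM in knockout and 7.24 to 11.3 in wild-type clones, and the 6 fibroblast and epithelial markers to 6.19 to 15.4 and 14.4 to 21.1. The part of these markers in the results was not tested. The 4 myeloid markers summed to at most 1.03 CPM and the 5 erythroid ones to at most 0.807 in any clone, with LYZ, HBA1, HBA2, HBB, MS4A1, COL3A1 and EPCAM at 0 in all 8 clones.

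Per length of transcript, MYB was the most abundant of the 10 genes and LMO1 came next. Levels per length are CPM per kilobase of the principal transcript, as means over the 4 wild-type clones. MYB had 207 ± 10.3 CPM per kb and LMO1 had 109.7 ± 11.3 (SD, n = 4). LYL1 followed with 78.7 ± 6.20, TCF3 with 58.6 ± 4.95 and GATA3 with 50.5 ± 1.61. LDB1 had 25.2 ± 9.72 and TCF12 had 23.4 ± 1.51, and their wild-type ranges overlapped, so their order is not set. TAL1, after which the complex is named, was at rank 8 with 12.7 ± 1.06 CPM per kb, below every partner that was detected. STIL was lowest of the detected genes with 3.74 ± 0.204 CPM per kb. Among 13778 tested genes with a known length, MYB stood at percentile 97.6, LMO1 at 95.2, TAL1 at 69.3 and STIL at 43.6. With the union of all exons as the length, TCF3 moved to rank 3, GATA3 to rank 4 and LYL1 to rank 5, and the other genes kept their ranks.

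**Figure D1:**
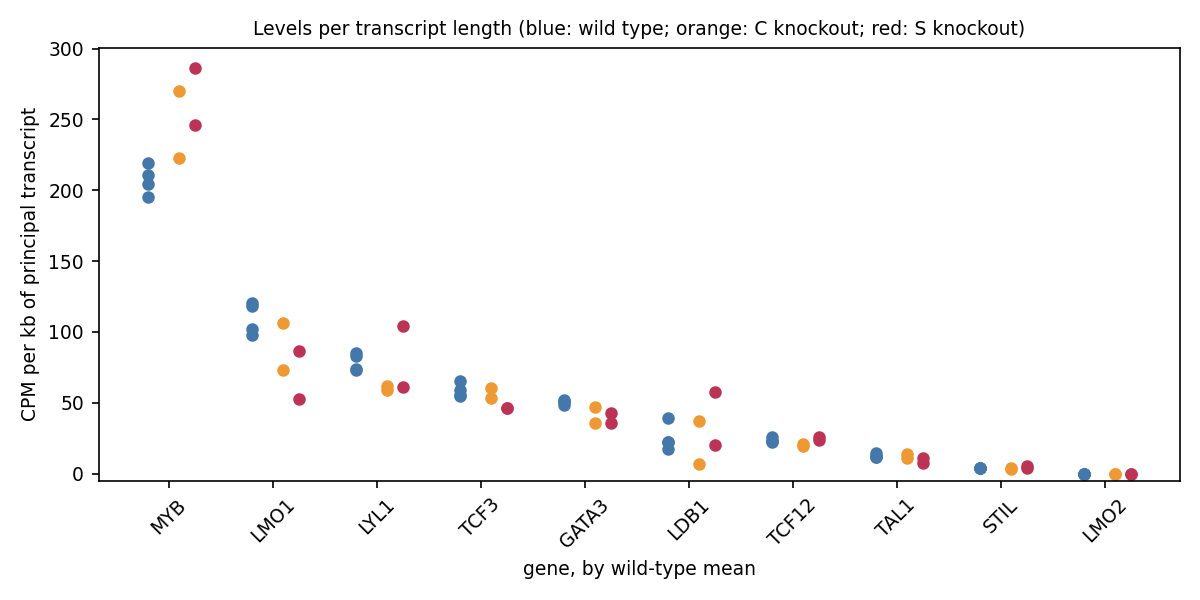
Level of each complex gene in CPM per kilobase of principal transcript (linear vertical axis), with 1 point per clone and genes ordered by their wild-type mean. MYB is highest in all clones, TAL1 lies below all its detected partners in the mean, and LMO2 is at 0 in all 8 clones.

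None of the 9 tested genes of the complex passed the threshold between knockout and wild-type clones, which was a p of 0.05 in the edgeR quasi-likelihood test after adjustment over all tested genes, with edgeR adjusted p-values between 0.284 and 0.874. Over all tested genes 45 passed, which is 0.316% of them, so a count of 0 among 9 genes is near the background. At an unadjusted edgeR p under 0.05 there were 3 of 9 (33.3%), LMO1, GATA3 and MYB, against 15.5% of all tested genes. DESeq2 and limma-voom called none of the 9 either. The groups did not overlap in CPM for 2 of the 9, MYB, which was higher, and GATA3, which was lower, against 10.1% of all tested genes (4.44% higher and 5.62% lower in knockout clones). The median log2 fold change of the 9 was -0.14, with 3 above 0 and 6 below, while that of all tested genes was 0.020, with 52.2% above 0. In these bulk libraries fewer cells with a transcript and less of it per cell cannot be told apart. The count of 45 ran from 3 to 456 as single clones were left out, and it moved by more than 1.5 times for each of the 8 clones.

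**Figure D2:**
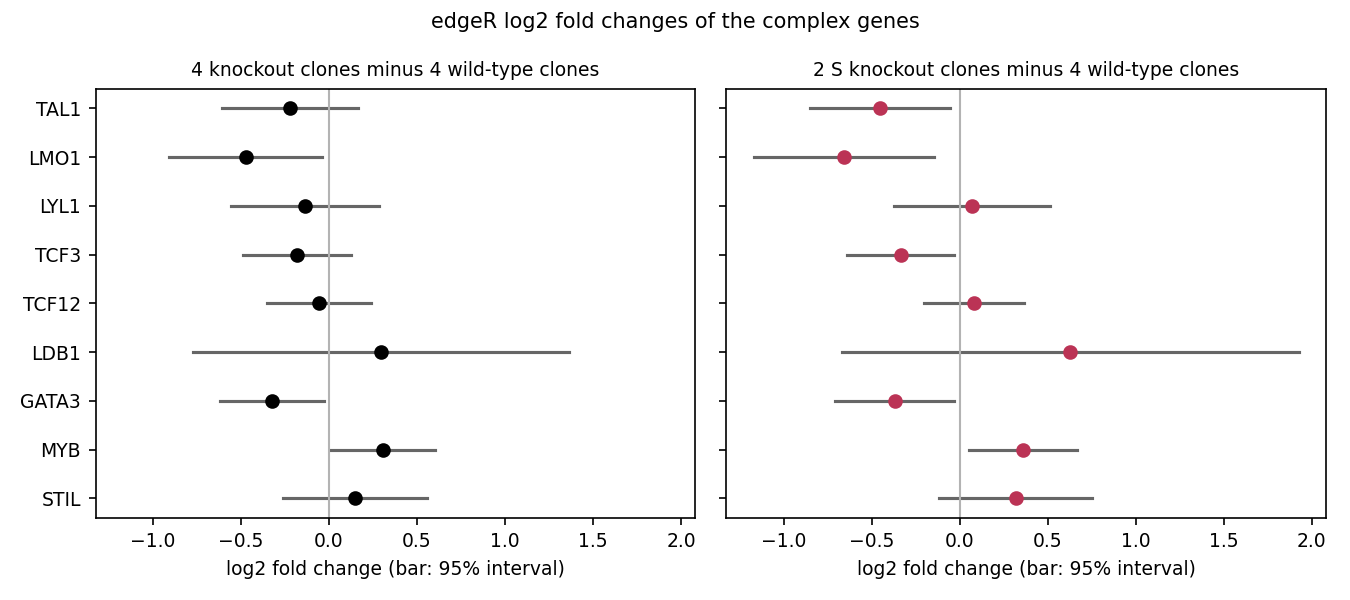
Fitted edgeR log2 fold changes of the 9 tested genes (horizontal axis, points) with 95% intervals (bars), for all 4 knockout clones and for the 2 S-named knockout clones, each against the 4 wild-type clones. On the left the intervals of LMO1, GATA3 and MYB lie to one side of 0, and on the right those of TAL1, LMO1, TCF3, GATA3 and MYB do, before adjustment for the number of genes tested.

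The C and S clones were also compared apart, in a fit with 3 groups. The S-named clones alone had 1374 genes past the threshold against wild type (9.65%), and the C-named clones had 5 (0.0351%). Against each other, the C and S clones had 51 such genes (0.358%). No complex gene passed in any of these 3 comparisons (edgeR adjusted p of at least 0.100 for S against wild type, 0.723 for C against wild type and 0.303 for C against S). At an unadjusted p under 0.05, edgeR gave 5 of 9 (55.6%) for the S clones, against 27% of all tested genes, and 0 of 9 for both the C clones and the C and S contrast, against 7.66% and 17.1%. Leaving out 1 clone moved these counts widely (300 to 2164, 1 to 174, and 0 to 749 in that order), and a group of 2 clones less 1 rests on the spread of the other groups.

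TAL1, the helix-loop-helix factor that the deletion of this line activates, was lowest in an S clone and highest among wild-type clones. It lies on chromosome 1 from 47216290 to 47232220 (minus strand; positions here are of GENCODE release 29 on hg38). TAL1 stood at 51.6 CPM in S04 and 37.4 in S36, at 66.7 in C12 and 53.7 in C15 (133 counts), and at 57.0, 61.2, 57.6 and 68.2 in WT10, WT13, WT28 and WT30. The S and C15 clones were below all wild-type clones, but C12 was above 3 of them, so the groups overlapped. The knockout and wild-type groups differed by a log2 fold change of -0.22 (SE 0.18, 95% interval -0.61 to 0.17, edgeR adjusted p = 0.588; exact permutation p = 0.229). In the S clones alone it was -0.45 (SE 0.18, 95% interval -0.85 to -0.057, edgeR adjusted p = 0.136). Without S36 these became -0.088 for all knockout clones and -0.25 for the S clones. They became -0.37 for all knockout clones without C12, and -0.70 for the S clones without S04. C12 and C15 exceeded the S clones by 0.45 in log2 (SE 0.20, edgeR adjusted p = 0.303), which did not pass. TAL1 exons overlap an antisense RNA, ENSG00000226252, which had 223 counts over all clones, and without a stated strand setting reads of the pair cannot be told apart.

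LYL1, the closest relative of TAL1 among these genes and a partner of the same E proteins, was high in S36 and low in the other 3 knockout clones. Its gene is on chromosome 19 from 13099033 to 13103161 (minus strand). LYL1 stood at 91.2 CPM in S04 and 155 in S36, at 91.6 in C12 and 88.0 in C15, and at 109, 127, 110.1 and 124 in WT10, WT13, WT28 and WT30. So 3 knockout clones lay below the wild-type range and the other lay above it. The log2 fold change of -0.14 (SE 0.19, 95% interval -0.56 to 0.28) did not pass (edgeR adjusted p = 0.775). For the S clones it was 0.068 (edgeR adjusted p = 0.866), which turned to -0.37 without S36 (adjusted p = 0.165, in a range of 0.128 to 1.00 over the alternatives run). Within a clone, the ratio of TAL1 to LYL1 counts was 0.242 in S36 and 0.566 to 0.729 in the other knockout clones, against 0.483 to 0.552 in wild-type clones. S36 was thus the clone with the least TAL1 and the most LYL1. This ratio and the others below were chosen after the values were seen, and are given with no test.

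**Figure D3:**
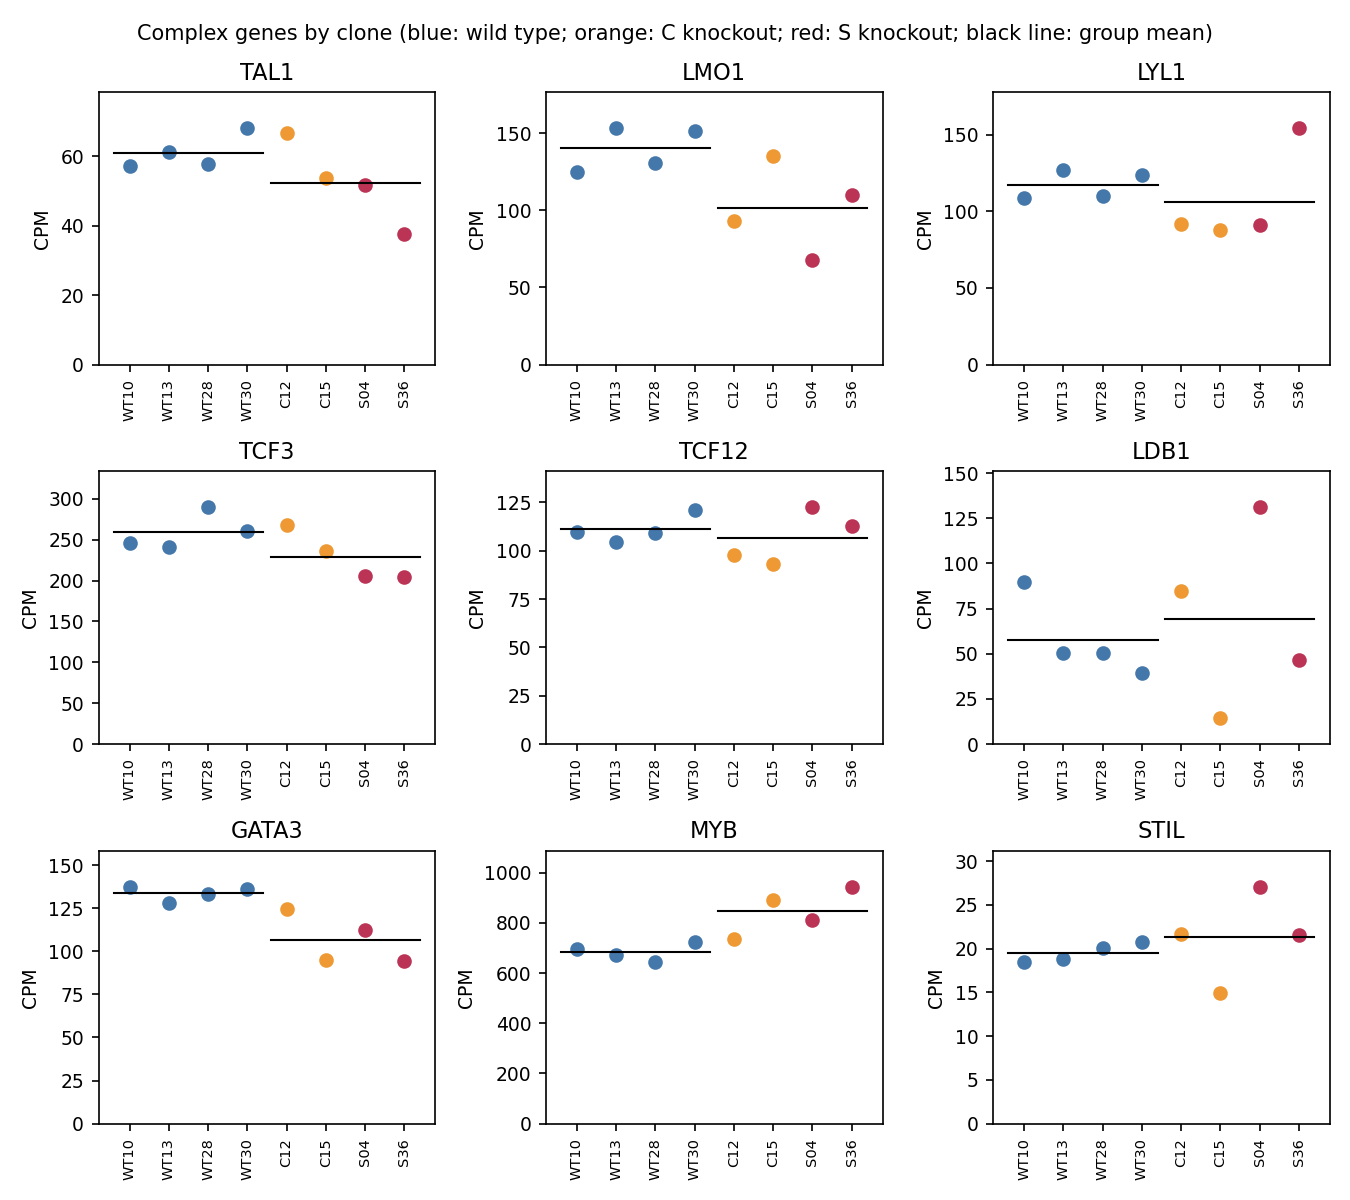
CPM of the 9 detected complex genes in each of the 8 clones (linear axes from 0, with 1 point per clone and a black line for the group mean). All 4 knockout clones lie above the wild-type clones for MYB and below them for GATA3, LYL1 is highest in S36, and LDB1 runs from 14.5 CPM in C15 to 131 in S04.

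LMO1, the bridging protein that the translocation of this line activates, was lower in knockout clones on average, by the largest margin among the genes with an unadjusted p under 0.05. It lies on chromosome 11 from 8224304 to 8268716 (minus strand). LMO1 stood at 67.6 CPM in S04 and 110.2 in S36, at 93.0 in C12 and 136 in C15, and at 125, 154, 131 and 151 in WT10, WT13, WT28 and WT30. C12, S04 and S36 were below every wild-type clone and C15 was within their range. Its log2 fold change of -0.47 (SE 0.20, 95% interval -0.91 to -0.038) had an edgeR p of 0.0356, an edgeR adjusted p of 0.289 and an exact permutation p of 0.0857. In the S clones it was -0.66 (SE 0.23, 95% interval -1.17 to -0.15), with an edgeR adjusted p of 0.100. That value passed without S36, where S04 alone was left at -1.06 (adjusted p = 0.0281), and with no filter on low counts at -0.72 (adjusted p = 0.00762), over a range of 0.00762 to 0.341. Without S04, where S36 alone was left, it was -0.35 (adjusted p = 0.341). C15, the clone with least depth, had the LMO1 level nearest to wild type, from 336 counts.

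LMO2, the bridging protein of blood stem cells and of many other T-cell leukaemias, was not detected in any clone. Its gene is on chromosome 11 from 33858576 to 33892289 (minus strand). It had 0 of 138932042 counts over the 8 libraries, which allows up to 3 counts, or 0.0216 CPM, for counting error only. The same floor is 0.116 CPM in the deepest library, C12, and 1.21 CPM in C15. LMO1 had 16770 counts over the same clones, at least 5590-fold higher than the LMO2 floor over all clones. Some genes further from LMO2 were expressed in the same libraries. CAPRIN1, whose start is 159.4 kb from that of LMO2, had a mean of 190 CPM in wild-type clones. NAT10 (213.3 kb) had 346 and CD59 (155.8 kb) had 118. The nearest gene with counts was FBXO3 at 117.7 kb, with a wild-type mean of 11.7 CPM. All annotated genes that start closer to LMO2 had 0 counts.

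TCF3, the more abundant E protein gene, was lowest in the S clones, and TCF12 was lowest in the C clones. TCF3 lies on chromosome 19 from 1609290 to 1652605 (minus strand). It stood at 206 CPM in S04 and 205 in S36, at 268.5 in C12 and 237 in C15, and at 247, 241, 290.0 and 260.3 in WT10, WT13, WT28 and WT30. C15 and the S clones lay below the wild-type range and C12 lay within it, and the fitted change was -0.18 log2 units (SE 0.14, edgeR adjusted p = 0.575). In the S clones it was -0.34 (SE 0.13, 95% interval -0.64 to -0.033, edgeR adjusted p = 0.146). TCF12 lies on chromosome 15 from 56918623 to 57299281 (plus strand). It stood at 123 CPM in S04 and 113 in S36, at 97.8 in C12 and 93.3 in C15, and at 109.8, 104, 109 and 121 in WT10, WT13, WT28 and WT30. Here the C clones were the low ones, and S04 was above every wild-type clone. Its log2 fold change was -0.058 (SE 0.13, 95% interval -0.35 to 0.24, edgeR adjusted p = 0.874). The ratio of TCF3 to TCF12 counts was 2.74 in C12 and 2.54 in C15, but 1.68 in S04 and 1.82 in S36, while the wild-type range was 2.15 to 2.65. Neither gene differed between C and S clones past the threshold, with log2 differences of 0.30 for TCF3 (edgeR adjusted p = 0.359) and -0.30 for TCF12 (edgeR adjusted p = 0.342).

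LDB1, the protein that dimerises to hold LMO and GATA modules together, varied more between clones of the same group than any other gene of the complex. It lies on chromosome 10 from 102107560 to 102120453 (minus strand). LDB1 stood at 131 CPM in S04 and 46.4 in S36, at 84.8 in C12 and 14.5 in C15 (36 counts), and at 89.9, 50.5, 50.5 and 39.3 in WT10, WT13, WT28 and WT30. WT10 was high among wild-type clones, and the knockout clones ran from below to above the wild-type range. The SD of log2 CPM was 0.505 in wild-type clones, above 98.9% of 7650 genes with a mean of at least 10 CPM, and 1.37 in knockout clones, above 98.6%. For comparison, the median gene had 0.122 in wild-type and 0.355 in knockout clones, and GATA3 had 0.0462 and 0.195. The log2 fold change was 0.30 (SE 0.49, 95% interval -0.77 to 1.36, edgeR adjusted p = 0.812), and it turned to -0.18 without S04. A difference of LDB1 of this size was not detectable between these groups.

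GATA3, the GATA factor of the T lineage, was lower in all 4 knockout clones than in any wild-type clone. It lies on chromosome 10 from 8045378 to 8075203 (plus strand). GATA3 stood at 113 CPM in S04 and 94.7 in S36, at 125 in C12 and 94.9 in C15, and at 138, 128, 133 and 136 in WT10, WT13, WT28 and WT30. The highest knockout clone, C12, was close to the lowest wild-type clone. The groups differed by -0.32 in log2 (SE 0.13, 95% interval -0.62 to -0.030), with an edgeR p of 0.0337 and an edgeR adjusted p of 0.284. Exact permutation gave p = 0.0286, the smallest that 70 assignments of the clones allow. Any gene whose groups do not overlap has this p, so it adds nothing to the lack of overlap. Of all tested genes, 10.1% did not overlap. The direction was the same in S clones (-0.37, SE 0.15, edgeR adjusted p = 0.152) and the C and S clones differed by 0.091 (95% interval -0.30 to 0.48, edgeR adjusted p = 0.828).

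MYB, a factor of progenitor growth that joins the complex at enhancers, was higher in all 4 knockout clones than in any wild-type clone. It lies on chromosome 6 from 135181315 to 135219173 (plus strand). MYB stood at 813 CPM in S04 and 945 in S36, at 736 in C12 and 891 in C15, and at 695, 674, 644 and 724 in WT10, WT13, WT28 and WT30. Again C12 was the knockout clone nearest to wild type. Its log2 fold change of 0.31 (SE 0.13, 95% interval 0.0095 to 0.60) had an edgeR p of 0.0442, an edgeR adjusted p of 0.311 and an exact permutation p of 0.0286. As for GATA3, the permutation p follows from the lack of overlap. MYB-AS1, whose exons overlap those of MYB on the other strand, had 10 counts in all. Within a clone, MYB counts were 5.91 to 9.98 times those of GATA3 in knockout clones and 4.84 to 5.31 times in wild-type clones, without overlap. MYB was higher and GATA3 lower in every knockout clone, so their ratio had to differ without overlap and adds no further result.

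The regions around GATA3, MYB, LMO1 and TAL1 did not move with them in every clone. As differences of log2 CPM from the wild-type mean, GATA3 stood at -0.25 in S04 and -0.50 in S36, and at -0.10 in C12 and -0.50 in C15. The median of the 62 tested genes within 10 Mb of GATA3 stood at 0.089, 0.245, 0.034 and -0.084 in the same order, so 3 of the 4 regional medians had the opposite sign. S36 had raised levels over chromosome 10 as a whole, with a median of 0.298 over 523 genes, while its GATA3 was low. MYB stood at 0.25 in S04 and 0.47 in S36, and at 0.11 in C12 and 0.38 in C15, and the median of the 52 tested genes around it at 0.158, -0.120, 0.194 and -0.080. In C12 the region was thus above MYB itself, and in C15 and S36 it was below 0. The medians around LMO1 lay between 0.0016 and 0.087 in knockout clones, where LMO1 itself ran from -1.05 to -0.042. Around TAL1 they lay between -0.051 and 0.063, and TAL1 itself ran from -0.70 in S36 to 0.13 in C12. TCF12 and its region shared a sign in C15 (-0.251 and -0.175) and S04 (0.143 and 0.0615). They did not in C12 (-0.182 and 0.0518) or S36 (0.0207 and -0.0729). LYL1, TCF3, LDB1 and STIL also shared the sign of their region in some knockout clones and not in others. The part of the regions in these levels was not tested.

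**Figure D4:**
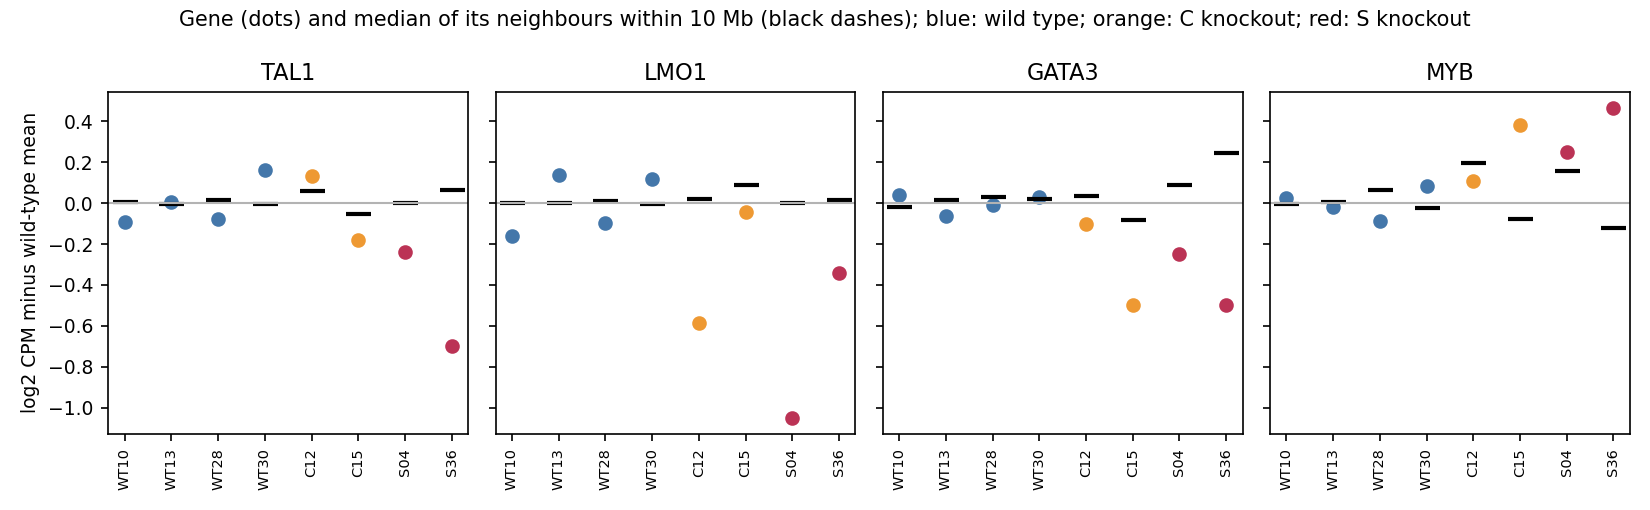
Difference of log2 CPM from the wild-type mean (vertical axis) for TAL1, LMO1, GATA3 and MYB in each clone (dots), and the median of tested genes within 10 Mb of each (black dashes). For GATA3 in S36 the gene lies at -0.50 and its region at 0.245, and for LMO1 in S04 the gene lies at -1.05 with its region near 0.

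STIL, the centriole gene whose promoter is described as driving TAL1 in this line, did not follow TAL1 in the S clones. It lies on chromosome 1 from 47250139 to 47314147 (minus strand), and its start is 81.93 kb upstream of that of TAL1. STIL stood at 27.1 CPM in S04 and 21.5 in S36, at 21.6 in C12 and 14.9 in C15 (37 counts), and at 18.5, 18.8, 20.1 and 20.8 in WT10, WT13, WT28 and WT30. The 3 deeper knockout clones were above the wild-type range and C15 was below it. Knockout against wild type gave a log2 fold change of 0.15 (SE 0.18, 95% interval -0.26 to 0.55, edgeR adjusted p = 0.746), and in S clones it was 0.32 (SE 0.19, edgeR adjusted p = 0.331). The ratio of TAL1 to STIL counts was 1.90 in S04 and 1.74 in S36, below the 2.87 to 3.28 of wild-type clones, whereas C12 had 3.08 and C15 had 3.59. Only the S clones thus had a ratio below the wild-type range. As differences of log2 CPM from the wild-type mean, S04 had STIL at 0.472 and TAL1 at -0.239. S36 had STIL at 0.142 and TAL1 at -0.699. Gene-level counts do not separate a transcript that starts in STIL and continues into TAL1 from other TAL1 transcripts, and STIL counts hold those of any intact allele.

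**Figure D5:**
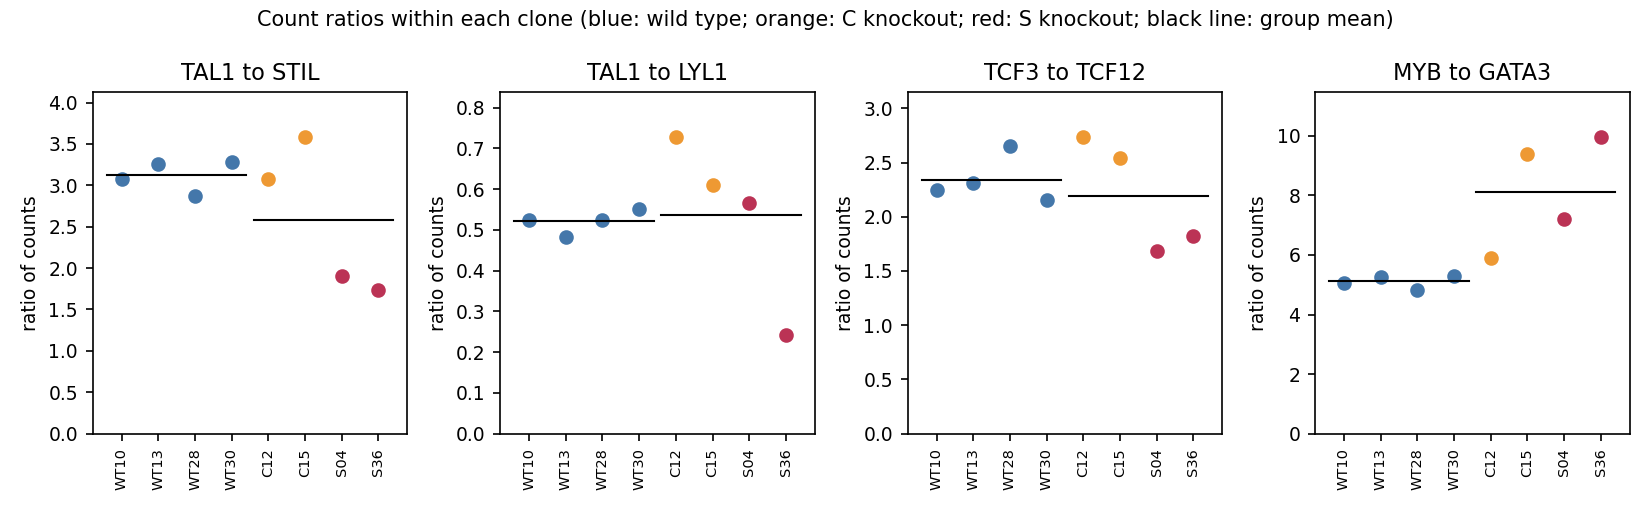
Ratio of counts of 2 genes within each clone (vertical axes from 0, with 1 point per clone and a black line for the group mean). The S clones are below all others for TAL1 to STIL and TCF3 to TCF12, S36 alone is low for TAL1 to LYL1, and all 4 knockout clones are above the wild-type clones for MYB to GATA3. This last separation follows from the levels of MYB and GATA3 themselves.

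Related genes were read from lists chosen by function. No gene of any of these lists passed the threshold between all knockout and wild-type clones, so the values below are given for the tested members with the smallest p. Of 6 other LMO, LDB and SSBP genes, 4 were tested. SSBP2 and SSBP3, which bind and stabilise LDB1, were lower in all 4 knockout clones than in any wild-type clone. Over all tested genes 5.62% were lower in this way, and these genes were named for a small p, so nothing is read from their share. SSBP2 had 34.3 to 70.7 CPM against 81.6 to 84.4 (log2 fold change -0.69, SE 0.22, edgeR adjusted p = 0.183), and it passed without C12 (adjusted p = 0.0455, in a range of 0.0288 to 0.415 over the alternatives). SSBP3 had 171 to 247 CPM against 259 to 286 (-0.38, SE 0.14, edgeR adjusted p = 0.249). LMO4, a relative of LMO1 that is widely expressed, had 27.9 to 69.7 CPM against 34.3 to 42.7, and LMO3 was at 0 in all clones.

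The third E protein gene was also expressed, as was GATA2, another GATA gene. TCF4, which encodes E2-2, stood at 151 CPM in S04 and 66.9 in S36, at 212 in C12 and 208 in C15, and between 49.3 and 92.7 in wild-type clones. So 3 knockout clones were above the wild-type range and S36 was within it (log2 fold change 1.06, SE 0.32, edgeR adjusted p = 0.176), and the value passed with DESeq2 (adjusted p = 0.0434, in a range of 0.00187 to 0.396). Of the inhibitors that tie up E proteins, ID2 was the most abundant at 17.6 to 62.2 CPM over all clones, and ID1 was at 1.13 to 4.36 CPM. GATA2, a factor of stem and progenitor cells, had 33.5 to 75.5 CPM in knockout and 34.6 to 44.0 in wild-type clones (log2 fold change 0.42, SE 0.22, edgeR adjusted p = 0.376). The ratio of GATA3 to GATA2 counts was 1.49 to 2.83 in knockout and 3.13 to 3.94 in wild-type clones, without overlap. GATA3 itself did not overlap between the groups, and the ratio was chosen after its values were seen, so nothing further is read from it. GATA1, the erythroid GATA factor, was at 0 in all clones.

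Among 13 corepressors and coactivators that TAL1 recruits, all were tested, and CBFA2T3, a corepressor known as ETO2, differed most. CBFA2T3 stood at 2.48 CPM in S04 and 0.306 in S36, at 7.49 in C12 and 14.9 in C15, and at 38.7, 59.6, 16.7 and 43.5 in WT10, WT13, WT28 and WT30. All knockout clones were below all wild-type clones, although C15 was close to WT28. Its fitted change was -2.92 log2 units (SE 0.75, edgeR adjusted p = 0.129), and in the S clones it was -4.76 (SE 0.77, edgeR adjusted p = 0.00923), which passed in all 15 alternatives run; for all knockout clones it passed with no low-count filter (adjusted p = 4.75e-08, in a range up to 0.351). EP300, a histone acetyltransferase, was also lower in every knockout clone, with 66.5 to 83.0 CPM against 95.7 to 99.4 (-0.35, SE 0.12, edgeR adjusted p = 0.216). CBFA2T3 and EP300 were 2 of 13 without overlap, where 5.62% of all tested genes were lower in this way. In the S clones 1 of 13 passed, CBFA2T3, which is near the 9.65% of all tested genes that passed there.

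Of 11 other factors of the enhancer circuit, 1 gene, RUNX1, rose in the S clones, which is near the 9.65% of all genes that passed there. RUNX1 stood at 298 CPM in S04 and 266 in S36, at 184 in C12 and 180.0 in C15, and between 188 and 209 in wild-type clones. The S clones were above every wild-type clone and the C clones below them. The log2 fold change for S clones was 0.53 (SE 0.12, edgeR adjusted p = 0.0287), over a range of 0.00548 to 0.112 in the alternatives, and it did not pass without the low-count filter, without S04 or without any 1 of the 4 wild-type clones. It was 0.25 for all knockout clones (SE 0.18, edgeR adjusted p = 0.547).

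Genes known as bound or raised by the complex went both ways, with 4 of 8 tested above 0 and 4 below. ARID5B, a direct target that sustains this leukaemia, had 56.5 to 86.2 CPM in knockout and 86.3 to 116 in wild-type clones (log2 fold change -0.52, SE 0.16, edgeR adjusted p = 0.177). ALDH1A2, an enzyme of retinoic acid synthesis that TAL1 and LMO activate in T-cell leukaemia, stood at 266 CPM in S04 and 34.8 in S36, at 272 in C12 and 135 in C15, and between 280 and 332 in wild-type clones. Its knockout values lay below the wild-type range, far below only in C15 and S36, and the fitted change was -0.80 log2 units (SE 0.46, edgeR adjusted p = 0.438). ARID5B and ALDH1A2 were the only tested genes of this list without overlap, where 5.62% of all tested genes were lower in this way. Of the E protein targets of thymocytes, which TAL1 opposes, 5 of 7 were tested, with 2 above 0 and 3 below. DNTT, the terminal transferase, had 364 to 630 CPM in knockout and 553 to 669 in wild-type clones (-0.33, edgeR adjusted p = 0.392).

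Partners of STIL in centriole duplication were all tested, 7 of 7, with 5 above 0 and 2 below. CEP192, a scaffold of the centrosome, rose in the S clones, with 45.6 CPM in S04 and 51.3 in S36 where wild-type clones had 24.2 to 32.3 (log2 fold change 0.86, SE 0.17, edgeR adjusted p = 0.0161), and did not pass without WT13, WT28 or WT30. Of 6 proliferation genes, 2 fell in the S clones, where 9.65% of all tested genes passed. AURKA, a mitotic kinase, had 116 and 108 CPM in the S clones against 203 to 296 (-1.18, SE 0.23, edgeR adjusted p = 0.0162), and did not pass without WT28 or WT30. TOP2A, a topoisomerase named here because it is the other of these calls, had 2920 and 3050 CPM against 3970 to 5020 (-0.59, SE 0.15, edgeR adjusted p = 0.0425), and did not pass after thinning to the shallowest library or without any 1 of S04, S36 and the wild-type clones. No other gene of the lists passed in the S clones than CBFA2T3, RUNX1, CEP192, AURKA and TOP2A, and none passed for C against wild type or C against S. Of 10 list genes also fitted without the C clones, SSBP2, SSBP3, LMO4, CBFA2T3, EP300, ARID5B and RUNX1 then passed, with edgeR adjusted p-values of 0.00713 to 0.0495. In that fit 2211 of 15219 genes passed (14.5%), and 9 of the 10 were named for a small p between knockout and wild-type clones, and nothing is read from their share.

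Around TAL1, 29 other genes reach into the 500 kb to each side, of which 7 were tested and none passed. CMPK1, a nucleotide kinase next to STIL, had 178 CPM in S04 and 77.1 in C15, its highest and lowest clones, as they were for STIL. The same clones were highest and lowest for EFCAB14 (167 and 53.3 CPM), on the other side of TAL1, and for LDB1 on chromosome 10. FOXD2 went the other way, with 7.85 CPM in S04 and 17.8 in C15, and 9.81 to 13.1 in wild-type clones. The other tested neighbours of TAL1 had neither pattern. Beside LMO1, 7 of 31 genes were tested and none passed. RPL27A, a ribosomal protein gene, had 8930 CPM in C15, 5140 in C12, 4900 in S36 and 2840 in S04, and wild-type clones had 5930 to 6660. Among knockout clones S04 was lowest and C15 highest for RPL27A, as for LMO1 and for TUB, a gene at a low level (0.241 and 2.42 CPM). In these libraries 3 counts are 0.181 and 1.21 CPM, so the TUB values rest on few counts. The share of all tested genes with S04 and C15 at their ends is not given here. Nothing is therefore read from these matches or from those around TAL1. The other tested neighbours did not share both ends. DENND2B, TRIM66 and STK33 were lowest in S36, RIC3 was lowest in C15, and EIF3F was highest in C12. EIF3F, a subunit of a translation initiation factor, had 59.8 to 95.7 CPM in knockout and 96.2 to 113 in wild-type clones (log2 fold change -0.46, SE 0.17, edgeR adjusted p = 0.233). Near LMO2, 6 of 19 genes were tested and none passed, and 10 of the 19 had no counts.

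By Pearson correlation of log2 CPM over the 8 clones, the genes most like TAL1 were PIGL (0.967), VAT1 (0.963), RNF7 (0.962), CENPW (0.961) and SCOC (0.958). VAT1, for example, had 152 CPM in S36 and 244 in S04, against 273 to 342 in wild-type clones, with C12 at 307 and C15 at 251. The genes most like LMO1 were TTLL4 (0.977), PRCP (0.976), PSMF1 (between PRCP and RETREG2), RETREG2 (0.974) and ASAH1 (0.971). PSMF1, a proteasome inhibitor, had 35.4 CPM in S04, 48.4 in C12, 67.7 in S36 and 83.6 in C15, while wild-type clones had 81.2 to 90.7. The 8 points share their libraries and depths, and only 1 of these 10 genes was among the 5 most like TAL1 or LMO1 by Spearman correlation.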

How the data were processed

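The authors deposited raw counts per gene symbol for 8 clones. The build was hg38 and the tools were TopHat2, Subread, SAMtools and FastQC, per the submitters' processing notes. For versions, annotation and strand setting, nothing is given in the sources used here. Per the labels' protocols, total RNA was column-purified. Positions and lengths came from GENCODE 29, to which 56873 symbols were matched, and promoters of 9 of the 10 genes from RefSeq.

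All genes were fitted together: filterByExpr, TMM, the two-sided edgeR 4.0.16 quasi-likelihood test (R 4.3.3) and Benjamini-Hochberg adjustment over 14243 genes, with a threshold of 0.05. A fit with 3 groups gave the C and S contrasts. Log2 CPM used a prior count of 2. Exact two-sided permutation tests used 70 assignments. DESeq2 1.42.0 and limma 3.58.1 (voom) were alternatives. The method was tested on simulated data for knockout against wild type, where it recovered 49% of 2-fold and 91% of 4-fold changes. Smaller changes, as fitted for the complex genes, were not simulated. Replicates are clones of 1 line, so p-values measure only the spread between these clones, which may be in part technical.

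The complex genes and gene lists were chosen with earlier results of these data known. Named were all complex genes, NKX2-1, RUNX1, up to 3 genes per list by smallest p, the 5 genes most like TAL1 and LMO1, and expressed neighbours. A gene of the marker lists is not reported here. Counts of each of the 12 pairs of clones within a group differed by more than sampling noise (chi-square per degree of freedom at least 13.8).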

Additional observations from a re-analysis of the deposited data

Results flagged for a closer look

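LYL1 in S36 stood far above the other 3 knockout clones, at 7.28 log2 CPM against 6.46 to 6.52, or 155 CPM against 88.0 to 91.6. CEP192 in WT10 stood above the other wild-type clones, at 5.02 log2 CPM against 4.60 to 4.66. CD79A, a B-lineage marker at a low level in this line, stood below the other knockout clones in S04, at -0.604 log2 CPM against 1.34 to 1.51. These are gaps of 1 clone from the rest of its group beyond Dixon's critical value. Among the 144 groups of 4 clones looked at (72 genes), chance flags about 1 in 20, or 7.2, and 3 were found.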

How the results depend on the processing

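No complex gene passed between knockout and wild-type clones under any of the 17 refits. The number of all genes past the threshold (45) became 581 with no low-count filter, 521 with DESeq2, 94 with limma-voom, 4 after thinning to the shallowest library, 6 with C clones only and 2211 with S clones only. It ran from 3 to 456 with 1 clone left out: 456 without C12, 114 without C15, 7 without S04, 20 without S36, 5 without WT28, and 3 without any 1 of the other wild-type clones. For C against wild type (5 genes) it was 259 with no filter, 80 with DESeq2, 1 after thinning, and 1 to 174 with 1 clone left out. For S against wild type (1374) it was 2266, 643 after thinning, and 300 to 2164. For C against S (51) it was 14 with DESeq2 size factors, 762 with no filter, 14 with a filter at 1 CPM in 4 clones, 651 with DESeq2, 89 with limma-voom, 13 without mitochondrial and histone genes, and 0 to 749. The cause of these moves was not tested.

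For S clones, 1 complex gene (LMO1, -0.72) passed with no filter, and 0 to 1 with 1 clone left out (LMO1, -1.06 without S36). Signs turned for TCF12 between knockout and wild type (0.0068 thinned, 0.068 with S clones only), LDB1 (-0.11 with C clones only, -0.18 without S04, -0.065 as a plain difference of log2 CPM), STIL (-0.054, C clones only), LYL1 (0.054, S clones only) and RUNX1 (-0.12, C clones only). For S against wild type they turned for LDB1 (-0.31 without S04; range -0.31 to 1.19) and LYL1 (-0.37 without S36; range -0.37 to 0.40). For C against S they turned for GATA3 (-0.13 without C12, -0.024 without S36; range -0.13 to 0.26), MYB (0.018 without C12; range -0.27 to 0.018) and LDB1 (0.22 without S04; range -2.62 to 0.22). LDB1 between knockout and wild type ranged from -0.18 to 0.60 with 1 clone left out. Of the genes most like TAL1 and LMO1, 1 of 10 was found by Spearman. No paired analysis was possible because no number in the labels ties a knockout clone to a wild-type clone. The 2730285 counts of C15 limit what its values can show.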

Other observations

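LDB1, chosen here after its values were seen, shared its pattern over the 8 clones with many genes: 293 had a Pearson correlation of log2 CPM above 0.9 with it, against 125 for LMO1 and 51 for TAL1. STAG2, a cohesin subunit, had 386 CPM in C15, 476 in S36, 528 in C12 and 617 in S04, against 563 in WT10 and 477 to 508 in the other wild-type clones. CCNG2, a cyclin of arrested cells, had 12.5 CPM in C15, 30.9 in S36, 44.4 in C12 and 77.0 in S04, against 50.4 in WT10 and 31.7 to 40.2 in the other wild-type clones. As for LDB1, C15 was lowest and S04 highest, and WT10 was the highest wild-type clone. STAG2 and CCNG2 were picked for a high correlation with LDB1, so this likeness comes from the choice. C15 also had the fewest counts and the largest mitochondrial share (21.2%), and the part of these in the pattern was not tested.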
